A study of Mus musculus with 9 samples.

Results

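The genes of de novo lipogenesis and its regulators were followed in 3T3-L1 cells, a clonal mouse line of fibroblast origin that turns into adipocytes in culture. The rule takes 10 genes by name and uses no measured value, although the names were picked with earlier results of these data known: Acly, Acaca, Acacb, Fasn, Scd1, Scd2, Elovl6, Me1, Srebf1 and Mlxipl. All 10 were found among the 19094 genes with a value above 0 in at least 1 sample, and 9 of them were listed in every sample. Gene expression was measured by RNA-seq at day 0 (preadipocytes, before induction), day 4 and day 8, with 3 samples per day and 9 in all. Differentiation was induced with dexamethasone, IBMX and insulin, and the cells were then kept in medium with insulin. The cells carried no engineered allele, and no undifferentiated culture of the later days was among the samples, so time in culture and differentiation cannot be told apart. Each sample was a mixture of RNA from pooled cells of 1 stage. The p-values therefore measure the spread between these samples, which may be technical. Expected counts summed to between 18216114 (day 0, replicate 2) and 20452144 (day 0, replicate 3) per sample.

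De novo lipogenesis is the building of fatty acids from acetyl-CoA in the cytosol. Citrate leaves the mitochondrion and is split by ATP-citrate lyase, acetyl-CoA carboxylase makes malonyl-CoA, and fatty acid synthase joins the carbon units with NADPH as reductant. The palmitate formed is elongated and desaturated, and transcription factors that respond to insulin (SREBP-1), oxysterols (LXR) and glucose (ChREBP) are known to drive these genes in liver and fat.

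The adipocyte label was checked first. All 12 adipocyte markers rose from day 0 to day 4, where 9.77% of all tested genes were called higher. Adrb3 had a mean of 0 FPKM at day 0 and passed the filter on low counts, used below, through later samples. Against day 0 it could therefore only be called higher. Whether this also holds for other markers near 0 at day 0, such as Retn (mean 0.21 FPKM), was not tested. Their summed level was 155, 150.1 and 150.4 FPKM at day 0, of which Lpl made up 121, 114 and 116. At day 4 the sum was 6307, 7512 and 9034 FPKM, and at day 8 it was 9440, 10281 and 10209 FPKM, with Fabp4 as the most abundant marker in all 6 samples. The day 0 samples carry the adipocyte label too, but Adipoq stood there at only 0.60, 0.63 and 0.28 FPKM. The preadipocyte and fibroblast markers summed to 3947 to 4195 FPKM at day 0, 1885 to 2068 on day 4, then 3336 to 3388 on day 8, with Col1a1 as the most abundant gene in every sample (means of 1540, 1299 and 2270 FPKM). By the calls defined below, 6 of these 10 markers were lower early, 3 were higher late and 5 were lower over the whole process. Over all tested genes the shares of these calls were 7.98%, 4.24% and 7.7%. Fn1 went from 1145 to 191 and 309 FPKM, and Ly6a from 167 to 42.7 and 38.8 (means). Other members differed from these: Pdgfra went from 59.6 to 102 and 65.7 FPKM, Thy1 from 227 to 160 and 212, and Dlk1 from 828 to 181 and 415. The extraction label also names DRG, the dorsal root ganglion. Of 12 sensory neuron and glia markers, Scn10a, Scn11a and Tac1 were at or below 0.05 FPKM in every sample, and P2rx3 was the most abundant with 20.04 to 26.7 FPKM on day 0, 4.65 to 5.38 on day 4 and 17.8 to 18.6 on day 8. Of the macrophage markers, Ptprc and Adgre1 did not pass 0.04 FPKM. Cd68 had means of 1.32, 1.30 and 1.49 FPKM on day 0, 4 and 8, and Lyz2 of 1.8, 0.4 and 0.93. The list of 7 macrophage and blood genes summed to at most 6.57 FPKM, Hba-a1 being its most abundant gene in that sample. The list of 7 endothelial and epithelial genes summed to at most 1.07 FPKM. In bulk RNA, a change in the share of cells that had differentiated and a change in RNA per cell cannot be told apart, for any gene below.

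The start of the pathway shows how neighbouring steps moved apart. The promoter windows of the citrate carrier Slc25a1, of Acly and of Fasn are printed because these genes of 1 route differed in their early change, Slc25a1 and Fasn passing the 2-fold limit and Acly, which acts between them, not. Each window is from RefSeq on GRCm38.p6 and covers 250 bases before to 50 bases after the annotated start, read on the gene's own strand. Slc25a1 is at chr16:17928170-17928469, Acly at chr11:100527951-100528250 and Fasn at chr11:120824498-120824797, all on the minus strand.
Slc25a1: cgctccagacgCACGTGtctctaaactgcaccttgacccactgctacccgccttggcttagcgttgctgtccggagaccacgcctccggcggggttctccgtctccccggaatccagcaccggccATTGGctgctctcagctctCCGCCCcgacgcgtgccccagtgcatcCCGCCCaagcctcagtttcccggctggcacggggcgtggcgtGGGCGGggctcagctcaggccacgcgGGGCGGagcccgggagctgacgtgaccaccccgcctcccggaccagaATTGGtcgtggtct
Acly: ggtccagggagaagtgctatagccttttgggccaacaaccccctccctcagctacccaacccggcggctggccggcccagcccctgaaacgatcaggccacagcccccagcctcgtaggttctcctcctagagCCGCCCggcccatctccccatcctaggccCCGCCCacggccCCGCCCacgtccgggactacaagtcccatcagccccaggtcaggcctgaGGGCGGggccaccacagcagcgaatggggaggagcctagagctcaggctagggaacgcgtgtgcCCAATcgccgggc
Fasn: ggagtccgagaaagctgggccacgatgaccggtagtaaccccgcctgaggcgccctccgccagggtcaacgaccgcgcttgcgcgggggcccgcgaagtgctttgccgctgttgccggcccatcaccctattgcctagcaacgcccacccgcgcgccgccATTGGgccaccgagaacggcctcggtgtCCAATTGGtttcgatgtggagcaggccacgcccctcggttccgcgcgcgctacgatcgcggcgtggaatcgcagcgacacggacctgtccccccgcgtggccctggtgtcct
Capitals mark matches, on either strand, to CCAAT (the word bound by NF-Y), CACGTG (an E-box), GGGCGG (the word bound by Sp1) and TCACNCCAC (a sterol regulatory element). The Slc25a1 window held 2 CCAAT, 1 CACGTG and 4 GGGCGG matches, the Acly window 1 CCAAT and 4 GGGCGG, and the Fasn window 3 CCAAT, of which a pair overlap as CCAATTGG. Among all 32851 windows of this length, 37.4% held CCAAT, 7.15% CACGTG, 35.7% GGGCGG and 1.24% TCACNCCAC. The table had 12 windows for 8 of the genes. CCAAT was in 7 of the 12, GGGCGG in 5, and CACGTG and TCACNCCAC in 1 each, both of these belonging to Mlxipl at different starts. The table had no entry for Scd1 or Scd2.

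Differences between days were tested for the early phase (day 4 against day 0), the late phase (day 8 against day 4) and the whole process (day 8 against day 0). A gene was called when its Benjamini-Hochberg adjusted p in edgeR's quasi-likelihood test was under 0.05 and its change exceeded 2-fold. In the early phase 4 of the 10 genes were called higher (Fasn, Scd1, Srebf1 and Mlxipl) and none lower, where 9.77% of the 13154 tested genes were called higher and 7.98% lower. In the late phase 1 gene was called higher (Scd1) and none lower, against 4.24% and 2.81% of all tested genes. Over the whole process 5 were called higher (Fasn, Scd1, Me1, Srebf1 and Mlxipl) and none lower, against 10.3% and 7.7%. All 10 genes passed the filter on low counts, Mlxipl through its day 4 and day 8 samples. Against day 0 Mlxipl could therefore only be called higher, and its call adds nothing to the comparison with these shares. These comparisons share samples, so their counts are not independent. The median log2 fold change of the 10 genes was 0.55, 0.25 and 1.03 in the early phase, the late phase and the whole process, beside 0.02, -0.01 and -0.02 for all tested genes.

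The adjusted p alone separated little. The common biological coefficient of variation between samples of 1 day was 0.0538, and whether this is the reason was not tested. With no fold limit, 35.5% of all tested genes passed as higher and 33.7% as lower in the early phase, 22.5% and 22.7% in the late phase, and 34.8% and 36.2% over the whole process. By that rule 7 of the 10 genes were higher and 1 lower early, 6 higher and 1 lower late, and all 10 were higher at day 8 than at day 0. Below, a gene that passed the adjusted p but not the 2-fold limit is given by its values.

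**Figure D1:**
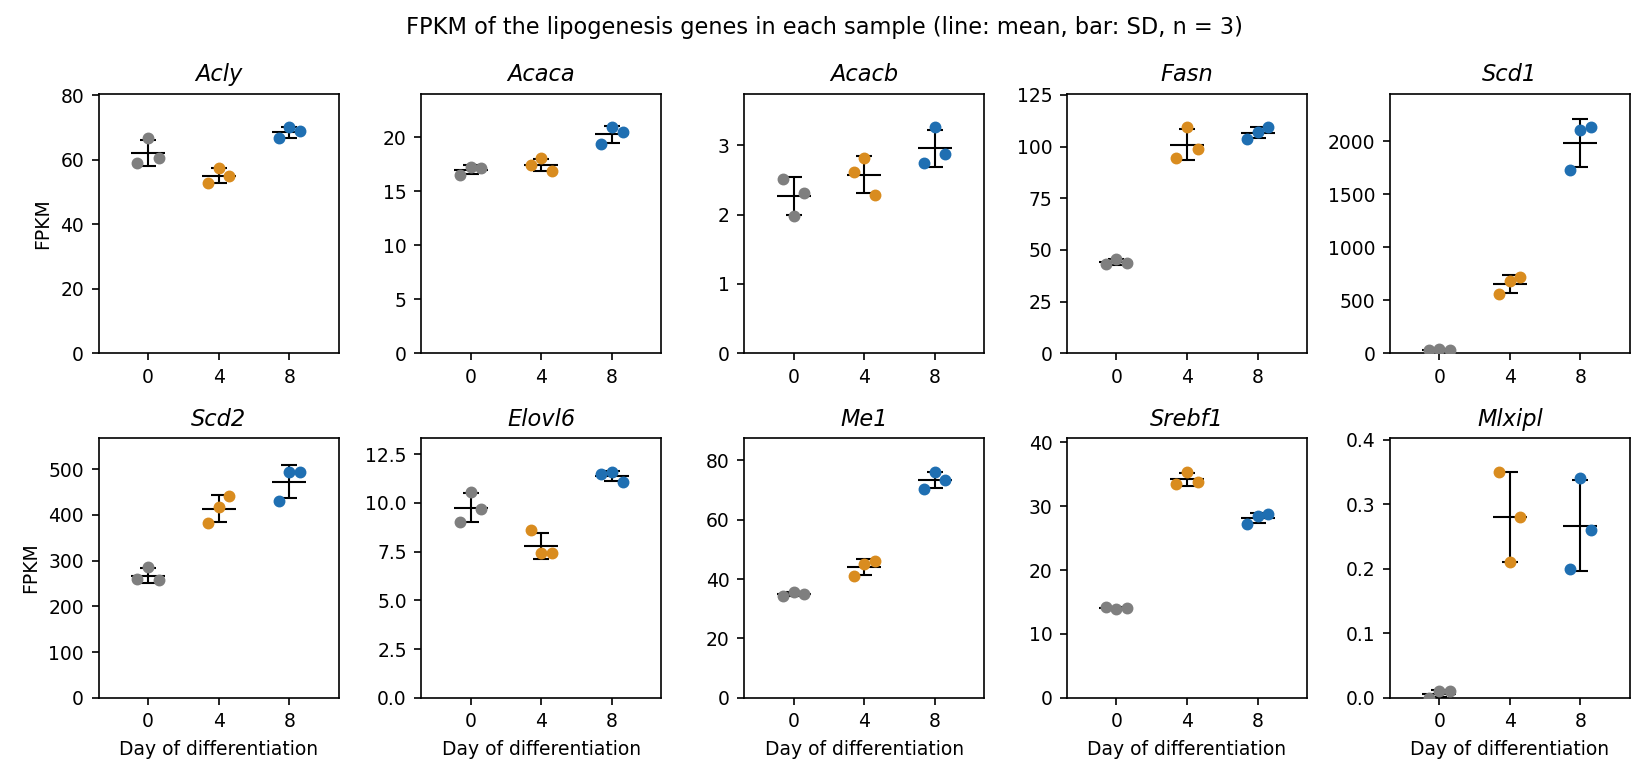
FPKM (y axis, linear and starting at 0, own scale per gene) of each gene at day 0, 4 and 8 (x axis). Points are the 3 samples of a day, the line is their mean and the bar their SD. Fasn and Srebf1 stand apart from day 0 by day 4, Scd1 climbs at both steps to above 1700, and Acly and Elovl6 are lowest at day 4.

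The enzymes that make the carbon units changed by less than 2-fold. Acly encodes ATP-citrate lyase, which releases acetyl-CoA from citrate. Its level was 58.9, 66.6 and 60.5 FPKM at day 0, 52.8, 57.4 and 55.1 at day 4, and 66.8, 70.1 and 68.8 at day 8. In FPKM the day 4 samples were all below those of day 0, and the day 8 samples were the highest, by a narrow margin over day 0 replicate 2. In CPM, day 4 replicate 2 (258) lay above day 0 replicate 1 (253), so these days overlapped. The log2 fold change of Acly was -0.10 ± 0.05 (SE) early (adjusted p = 0.089, edgeR), 0.36 ± 0.05 late (adjusted p = 3.7e-05) and 0.26 ± 0.05 over the whole process (adjusted p = 0.00038).

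Acaca encodes the cytosolic acetyl-CoA carboxylase 1, which commits acetyl-CoA to fatty acid synthesis. It stood at 16.5, 17.3 and 17.2 FPKM at day 0, 17.4, 18.0 and 16.9 at day 4, and 19.4, 20.9 and 20.5 at day 8. In FPKM the first 2 days overlapped and day 8 lay above both. In CPM the highest day 0 sample (151.6) was just below the lowest of day 4 (154.8). The log2 fold changes of Acaca were 0.11 ± 0.05 early (adjusted p = 0.065, edgeR) and 0.26 ± 0.05 late (adjusted p = 0.00039). Acacb encodes acetyl-CoA carboxylase 2, the form at the mitochondrial surface whose malonyl-CoA restrains fatty acid oxidation. It was low, at 2.52, 1.98 and 2.32 FPKM on day 0, 2.62, 2.82 and 2.29 on day 4, and 2.74, 3.26 and 2.87 on day 8. Day 4 overlapped both other days, while day 8 lay above day 0 (log2 fold change 0.49 ± 0.10, adjusted p = 0.00041, edgeR).

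Acacb made up 11.8% ± 1.48 (SD, n = 3) of the FPKM of the carboxylase pair on day 0, 12.8% ± 0.813 on day 4 and 12.7% ± 0.666 on day 8. The difference between day 8 and day 0 was 0.911 percentage points (exact permutation test, two-sided p = 0.4, n = 3 against 3), and it was 1.04 points early (p = 0.4) and -0.125 points late (p = 0.9, both by the same exact test). With 3 samples against 3 the smallest p this test can give is 0.1. Acaca was the more abundant carboxylase transcript in every sample.

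Fasn, which encodes fatty acid synthase, rose early and then stayed near its new level. It measured 43.1, 45.6 and 43.7 FPKM at day 0, 94.6, 109 and 98.9 at day 4, and 104, 107 and 109 at day 8. No sample of day 4 or day 8 came near the day 0 samples, and the later days overlapped. The early log2 fold change was 1.26 ± 0.06 (2.40-fold, adjusted p = 9.1e-12, edgeR), the late one 0.13 ± 0.06 (adjusted p = 0.075) and that of the whole process 1.39 ± 0.06 (adjusted p = 2.9e-12).

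The level of Fasn relative to the enzymes before it moved as well. Per length, Fasn stood at 0.712 ± 0.0254 times the level of Acly at day 0, at 1.83 ± 0.0656 times at day 4 and at 1.56 ± 0.0293 times at day 8 (SD, n = 3). Against Acaca the ratio of FPKM was 2.597 ± 0.0492, 5.78 ± 0.324 and 5.27 ± 0.130 on the same days. The day 0 ratios did not overlap those of later days for either pair.

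Me1 encodes the cytosolic malic enzyme, a source of NADPH. It had 34.4, 35.7 and 34.98 FPKM at day 0, 41.1, 45.1 and 46.0 at day 4, and 70.5, 76.1 and 73.5 at day 8. The 3 days did not overlap, and the larger step was the late one: 0.40 ± 0.05 log2 early (adjusted p = 4.5e-06, edgeR) and 0.78 ± 0.05 late (adjusted p = 4.4e-09). Neither step reached 2-fold, but Me1 rose 2.26-fold over the whole process (log2 1.18 ± 0.05, adjusted p = 7.1e-12).

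Elovl6 encodes the elongase that extends palmitate to stearate. Its level was 9.04, 10.5 and 9.66 FPKM at day 0, 8.58, 7.40 and 7.42 at day 4, and 11.5, 11.6 and 11.1 at day 8. Day 4 lay below and day 8 above the day 0 samples. The log2 fold changes were -0.25 ± 0.07 early (adjusted p = 0.003, edgeR), 0.59 ± 0.07 late (adjusted p = 2.1e-06) and 0.34 ± 0.06 over the whole process (adjusted p = 0.00021), all under the 2-fold limit.

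The stearoyl-CoA desaturases place the double bond that turns stearate into oleate, and their transcripts were the most abundant of the 10 genes at day 4 and day 8. At day 0 Scd2 ranked first and Scd1 was below Acly and Fasn. Scd1 was at 32.2, 39.4 and 34.2 FPKM at day 0, 557, 680.2 and 719 at day 4, and 1724, 2102 and 2129 at day 8. The days were far apart. Scd1 rose 19.4-fold early (log2 4.28 ± 0.11, adjusted p = 1.3e-14, edgeR) and another 3.14-fold late (log2 1.65 ± 0.10, adjusted p = 1.5e-09), which is 60.9-fold over the whole process (log2 5.93 ± 0.12, adjusted p = 8.7e-16). By count it ranked 1334, 983 and 1220 among all genes in the day 0 samples, and 4 in each day 8 sample, where it took 0.843%, 1.03% and 1.04% of all expected counts.

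Scd2 started from a higher level and changed less. It stood at 259, 286 and 257 FPKM at day 0, 383, 418 and 441 at day 4, and 431, 494 and 494 at day 8. In FPKM day 4 lay above day 0 and overlapped day 8. In CPM the highest day 4 sample (2428) was just below the lowest of day 8 (2436). The log2 fold changes of Scd2 were 0.70 ± 0.07 early (adjusted p = 1.1e-07, edgeR), 0.24 ± 0.07 late (adjusted p = 0.0084) and 0.94 ± 0.07 over the whole process (adjusted p = 3.1e-09). The last of these is just under the 2-fold limit, and it was 1.01 without day 8 replicate 1.

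The pair changed order. Scd1 made up 11.6% ± 0.534 (SD, n = 3) of the FPKM of Scd1 and Scd2 at day 0, 61.1% ± 1.56 at day 4 and 80.7% ± 0.628 at day 8. Each of the differences, 49.4 points early, 19.7 late and 69.1 over the whole process, had a two-sided p of 0.1 in the exact permutation test (n = 3 against 3), the smallest it can give. Taken over expected counts in place of FPKM, the shares were 10.5%, 58.2% and 78.8%. Reads could be told apart for most of the sequence: 4.56% of the 50-base stretches of the Scd1 transcripts and 3.97% of those of Scd2 also occur in transcripts of another gene. With Scd1 to Scd4 summed to 1 value, a fit added after seeing the data, the family rose by 1.80 ± 0.09 log2 early (adjusted p = 1.7e-11, edgeR) and 1.22 ± 0.08 late (adjusted p = 7.9e-09).

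**Figure D2:**
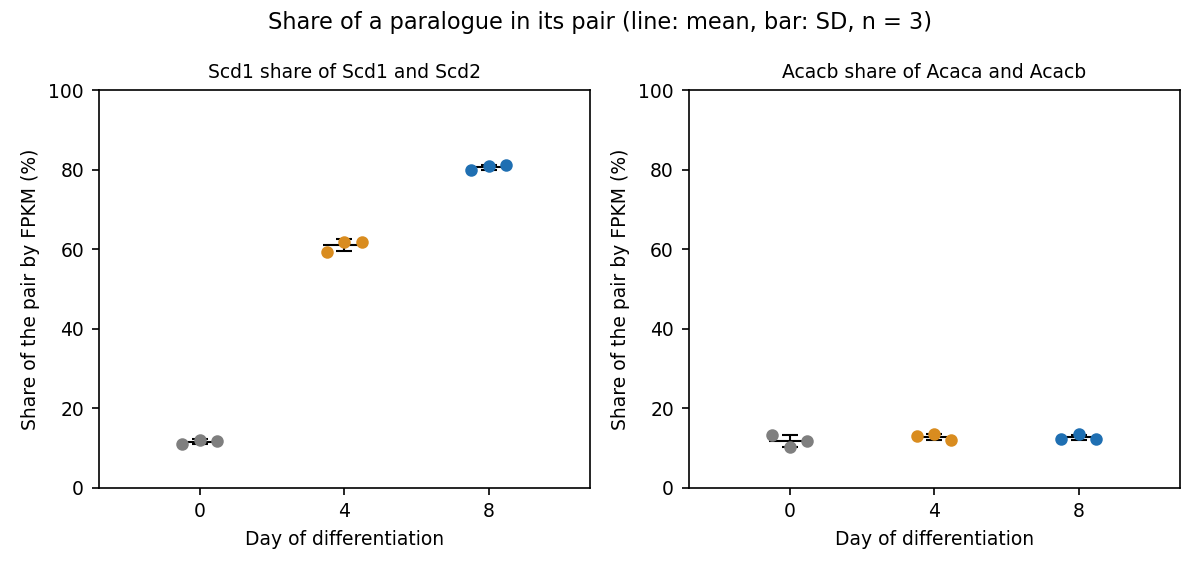
Share of Scd1 in the FPKM of Scd1 and Scd2 (left) and of Acacb in that of Acaca and Acacb (right), in percent, at day 0, 4 and 8. Points are samples, the line is the mean and the bar the SD of 3. The Scd1 share goes from 11.6% to 80.7%, while the means of the Acacb share stay between 11.8% and 12.8%.

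Among the regulators, Srebf1 encodes SREBP-1, whose forms 1a and 1c come from different starts of the gene. It was at 14.2, 13.9 and 14.1 FPKM on day 0, 33.5, 35.4 and 33.8 on day 4, and 27.3, 28.5 and 28.8 on day 8. Every day 4 sample was above every day 8 sample, and both days lay well above day 0. Srebf1 rose 2.55-fold early (log2 1.35 ± 0.05, adjusted p = 6e-13, edgeR). The late log2 change was -0.23 ± 0.05 (adjusted p = 0.00065), under the 2-fold limit, and the whole process gave a rise of 2.17-fold (log2 1.12 ± 0.05, adjusted p = 6.3e-12). On the log2(FPKM + 1) scale in limma this last value was 0.95 and was not called. The deposited values are per gene, with 2 transcripts behind Srebf1, so the forms 1a and 1c could not be separated.

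Mlxipl encodes ChREBP, the carbohydrate response factor, and was the least abundant of the 10 genes at each day. Its expected counts were 0, 1 and 1 at day 0, 26, 16 and 20 at day 4, and 15, 25 and 19 at day 8. In FPKM this is at most 0.01 at day 0, and 0.20 to 0.35 in the other 6 samples. The later days overlapped and neither overlapped day 0. Mlxipl was called early (adjusted p = 3e-06, edgeR) and over the whole process (adjusted p = 3.1e-06). It passed the filter on low counts through its day 4 and day 8 samples, so the direction of both calls was set beforehand. The summed counts were 62 at day 4 and 2 at day 0, and their ratio, scaled by library size, was 31.8 with an exact 95% interval of 8.45 to 269, and that of day 8 to day 0 was 31.3 (8.28 to 264). These intervals cover counting error only, and a limit of 3 counts per sample corresponds to 0.147 to 0.165 CPM here. The late log2 change was -0.03 ± 0.31 (adjusted p = 0.96), and at this depth a change of that size was not detectable.

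**Figure D3:**
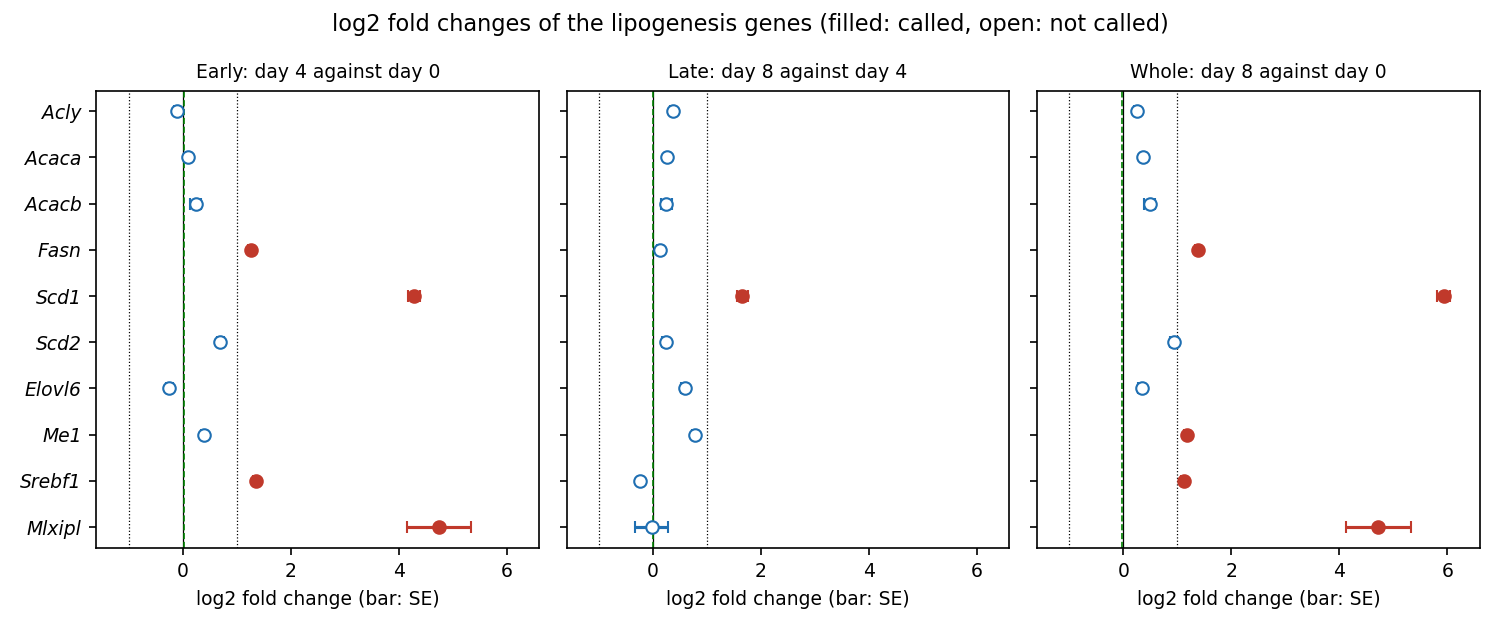
log2 fold change (x axis) of each gene in the early phase, the late phase and the whole process, with the standard error as a bar. Filled red points were called and open blue points were not, dotted lines mark 2-fold, and the green dashed line is the median of all 13154 tested genes. Scd1 is the only filled point in the late panel, and no point lies left of the lower 2-fold line.

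Ordered by mean FPKM, the genes at day 0 ran Scd2 (267), Acly (62.0), Fasn (44.1), Scd1 (35.3), Me1 (35.03), Acaca (17.0), Srebf1 (14.1), Elovl6 (9.74), Acacb (2.27) and Mlxipl (0.0067). Scd1 and Me1 were the only neighbours whose samples overlapped. At day 4 the order was Scd1, Scd2, Fasn, Acly, Me1, Srebf1, Acaca, Elovl6, Acacb and Mlxipl, and at day 8 it was the same but for Me1 (73.4) standing above Acly (68.6). No neighbours overlapped on these days. The 10 genes together took 0.268%, 0.294% and 0.270% of all expected counts on day 0, 0.654% to 0.771% on day 4 and 1.28% to 1.52% on day 8. Without Scd1 and Scd2 the share was 0.110% to 0.117%, 0.170% to 0.189% and 0.196% to 0.206%.

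Within day 0, replicate 2 was the highest of the 3 samples in 7 of the 10 genes on the CPM scale, where it was the highest in 36.5% of all tested genes. Among the pathway lists described further on, it was the highest in all 22 sterol genes, in 7 of 10 NADPH genes, 7 of 11 AMPK genes, 6 of 10 supply genes and 7 of 16 elongation and desaturation genes. It was the highest in 3 of 10 genes of the mitochondrial list, 3 of 11 of the ChREBP list and 4 of 17 of the SREBP list, shares below that of all tested genes. Its part in the results was measured by leaving it out: the same number of the 10 genes was called in each comparison, 4, 1 and 5. In the pathway lists, 2 genes in place of 1 were then called lower over the whole process. Prkaa2 lost its higher call there (0.88 log2).

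The wider pathway was measured in 8 lists, read by the same calls, with the shares over all tested genes (9.77%, 4.24% and 10.3% higher, 7.98%, 2.81% and 7.7% lower in the early phase, the late phase and the whole process) as their background. A gene not called may still have passed the adjusted p, and those counts stand beside each list. The supply list held 10 genes of acetyl-CoA and malonyl-CoA supply and turnover, all tested. Not all of them feed the pathway: Mlycd encodes malonyl-CoA decarboxylase, which breaks malonyl-CoA down, so its rise is not one of supply. In the early phase 5 rose (Thrsp, Mdh1, Pdhb, Slc25a1 and Mlycd) and none was called lower, with a median log2 change of 1.11. In the late phase none was called higher and Thrsp fell, with a median of 0.08. Over the whole process 6 rose, Acss2 being added, and none was called lower, with a median of 1.52. By the adjusted p alone 9 were higher and 0 lower early, 3 and 2 late, and 9 and 0 over the whole process. Slc25a1, the mitochondrial citrate carrier, went from 64.0, 65.2 and 63.3 FPKM to 134, 164 and 170.0 at day 4 and 179, 175 and 192 at day 8 (early log2 1.35 ± 0.07, adjusted p = 1.1e-10, edgeR). Mdh1, the cytosolic malate dehydrogenase that yields the substrate of malic enzyme, rose by 1.94 ± 0.07 early, and Pdhb, a subunit of pyruvate dehydrogenase, by 1.55 ± 0.06.

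Thrsp (Spot 14), a lipogenic protein that acts with its relative Mid1ip1 on acetyl-CoA carboxylase, had the widest range of the list. It was at 0.09, 0.20 and 0.09 FPKM at day 0, 137, 162 and 176 at day 4, and 37.6, 39.0 and 36.0 at day 8. The 3 days did not overlap, and day 4 was the peak (log2 10.33 ± 0.17 early, adjusted p = 7.9e-17, and -2.03 ± 0.08 late, adjusted p = 5.6e-12, edgeR). The expected counts of Thrsp at day 0 were 2, 4 and 2, around the limit of 3 per sample, so the size of its early change is uncertain. Thrsp passed the filter on low counts through its later samples, so against day 0 it could only be called higher. Its early and whole-process calls therefore add nothing to the comparison with the shares over all tested genes. Mid1ip1 stood between 51.9 and 59.3 FPKM in all 9 samples. Acss2, which makes acetyl-CoA from acetate, passed the limit over the whole process, from 6.03, 6.80 and 5.66 FPKM at day 0 to 18.1, 19.3 and 21.3 at day 8 (log2 1.78 ± 0.09, adjusted p = 1.8e-11, edgeR).

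Of 10 further genes of NADPH supply, 2 rose early and over the whole process (Taldo1 and Idh1), and no other call was made in any comparison. By the adjusted p alone 7 were higher and 2 lower early, 1 and 3 late, and 7 and 3 over the whole process. Their median log2 change was 0.43 early, -0.10 late and 0.59 over the whole process. Taldo1, the transaldolase of the pentose phosphate pathway, rose by 1.92 ± 0.09 early (adjusted p = 9.1e-12, edgeR), and Idh1, the cytosolic isocitrate dehydrogenase, by 1.19 ± 0.05 (adjusted p = 3.9e-12). Over the whole process Idh1 was at 1.04 log2, and at 0.99 and not called without day 0 replicate 1. Me1 differed from Idh1 in time: Idh1 was at 169, 177 and 180.1 FPKM at day 4 and 150, 157 and 151 at day 8, while Me1 was highest at day 8.

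Of 17 other genes of elongation and desaturation, 16 were tested. Early, 4 rose (Elovl3, Scd3, Hacd2 and Elovl4) and Hacd4 fell, with a median log2 change of 0.33. Late, none was called higher and Elovl4 and Hacd2 fell, with a median of -0.05, and over the whole process 3 rose and Elovl4 fell, with a median of 0.22. The adjusted p alone gave 9 higher and 5 lower early, 6 and 5 late, and 10 and 2 over the whole process. Hacd2, a dehydratase of the elongation cycle, was at 19.0, 20.8 and 21.6 FPKM, then 99.3, 104 and 118, then 50.9, 51.3 and 51.2 (log2 2.45 ± 0.06 early and -1.02 ± 0.06 late). Its relative Hacd4 went from 5.82 to 6.14 FPKM at day 0 to 2.29 to 2.66 at day 4 (log2 -1.21 ± 0.10, adjusted p = 2.8e-08, edgeR). Scd3 was far lower than Scd1, at 0.12 to 0.18 FPKM on day 0, 1.01 to 1.42 on day 4 and 0.94 to 1.23 on day 8. With expected counts of 13.01, 7.66 and 8.92 at day 0, Scd3 passed the filter on low counts through its later samples. Its calls against day 0 thus add little to the comparison with the shares over all tested genes. Its late log2 change was -0.17 ± 0.17 (adjusted p = 0.44, edgeR), where Scd1 rose by 1.65. Elovl4, an elongase of very long chains, was at 0.71, 1.57 and 1.93 FPKM at day 4, so the early call rests on samples that overlap day 0 (0.56 to 0.73). Without day 4 replicate 3 the early change of Elovl4 was 0.86 log2 and that of Hacd2 late was -0.95, and neither was called. Elovl3 was at 0 counts in the 3 samples of day 0 and was at least 5.24-fold higher at day 4, taking 3 counts per sample as the limit. It passed the filter on low counts through its later samples, so against day 0 it could only be called higher.

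The separate fatty acid synthesis pathway of the mitochondrion, which makes the lipoate precursor, also had genes above the limit. Of its 10 genes, 4 rose early (Hsd17b8, listed as H2-Ke6, with Mecr, Ndufab1 and Lias) and 3 over the whole process (H2-Ke6, Ndufab1 and Lipt2), and no other call was made. The adjusted p alone gave 10 higher and 0 lower early, 2 and 0 late, and 10 and 0 over the whole process. The medians were 0.88 early, 0.05 late and 0.90 over the whole process. Ndufab1, the mitochondrial acyl carrier protein, went from 44.6 to 45.7 FPKM at day 0 to 82.1 to 101 at day 4 (log2 1.09 ± 0.07, adjusted p = 3.5e-10, edgeR). Lias was at 1.03 log2 early, and was not called without day 4 replicate 2 (0.99) or day 4 replicate 3 (0.97). The value of H2-Ke6 is uncertain, since 70.5% of its 50-base stretches also occur in another annotated gene.

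Of the 17 genes of SREBP processing and control, 4 rose early (Nr1h3, Lpin1, Ube2g2 and Insig1) and 3 over the whole process (Nr1h3, Lpin1 and Insig1), and no other call was made. By the adjusted p alone 8 were higher and 5 lower early, 3 and 3 late, and 9 and 5 over the whole process, Srebf2 being among the lower genes each time. The medians were 0.08, 0.04 and 0.12 in the early phase, the late phase and the whole process. Nr1h3 encodes LXR alpha, the oxysterol receptor known to act on the Srebf1 gene. It was at 2.03, 1.74 and 2.10 FPKM at day 0, 37.2, 46.5 and 51.0 at day 4, and 46.3, 46.7 and 48.3 at day 8 (early log2 4.56 ± 0.12, adjusted p = 1.7e-14, edgeR). Insig1, which holds the SREBP precursor in the endoplasmic reticulum, was at 35.2, 41.8 and 38.2 FPKM, then 69.6, 77.2 and 87.6, then 74.9, 80.6 and 84.6 (early log2 1.09 ± 0.08, adjusted p = 3.2e-09, edgeR). Lpin1, a phosphatidate phosphatase, rose by 2.38 ± 0.07 early, and Ube2g2, a ubiquitin-conjugating enzyme of the endoplasmic reticulum, by 1.39 ± 0.06.

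Srebf2, the SREBP of the cholesterol genes, went the other way from Srebf1 in the early phase. It was at 85.2, 87.0 and 84.5 FPKM at day 0, 50.8, 51.4 and 45.5 at day 4, and 40.6, 40.3 and 41.2 at day 8, with no overlap between days. Its log2 change was -0.73 ± 0.05 early (adjusted p = 2.1e-09, edgeR) and -0.96 ± 0.05 over the whole process (adjusted p = 7.7e-11), both under the 2-fold limit. The ratio of Srebf1 to Srebf2 by FPKM was 0.164 ± 0.0045 on day 0, 0.697 ± 0.0417 on day 4 and 0.692 ± 0.0186 on day 8 (SD, n = 3). Scap, the escort of both SREBPs, was at 32.2 to 33.3 FPKM on day 0, 25.6 to 30.3 on day 4 and 25.4 to 27.1 on day 8. Insig2 was at 10.04 to 11.3, 11.1 to 12.01 and 15.3 to 16.8 FPKM on the same days (late log2 0.54 ± 0.06, adjusted p = 4.9e-06, edgeR).

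The sterol genes, which are chiefly under SREBP-2, numbered 22 tested. Early, 3 rose (Dhcr7, Cyp51 and Pmvk) and none was called lower, with a median log2 change of -0.01. Late, none was called higher and Cyp51 fell, with a median of 0.32, and over the whole process 2 rose (Pmvk and Dhcr7) and none was called lower, with a median of 0.29. With no fold limit 9 were higher and 9 lower early, 13 and 2 late, and 13 and 6 over the whole process. Cyp51, the lanosterol demethylase, was at 24.6, 31.1 and 25.9 FPKM at day 0, 48.3, 53.5 and 60.1 at day 4, and 20.5, 21.4 and 19.9 at day 8. The early calls of Cyp51 (1.06 log2) and Pmvk (1.03) depended on single samples. Cyp51 was at 0.99 without day 0 replicate 1 and 0.98 without day 4 replicate 3, and Pmvk, a kinase of the mevalonate pathway, at 0.92 without day 0 replicate 1 and 0.94 without day 4 replicate 2.

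Partners and relatives of ChREBP were measured at higher levels than Mlxipl itself. Of 12 genes in this list 11 were tested. Early 1 rose (Gpd1), late 1 rose (Bhlhe40) and over the whole process 3 rose (Gpd1, Txnip and Bhlhe40), and none was called lower in any comparison. With no fold limit 8 were higher and 2 lower early, 6 and 2 late, and 8 and 1 over the whole process. The medians were 0.42, 0.18 and 0.80. Mlx, the obligate partner of ChREBP, was at 16.3 to 16.8 FPKM on day 0, 25.8 to 30.5 on day 4 and 29.6 to 31.5 on day 8 (early log2 0.82 ± 0.06, adjusted p = 6.1e-09, edgeR). Mlxip, the paralogue MondoA, was at 9.15 to 9.94, 11.4 to 12.9 and 8.55 to 9.04 FPKM. Per length, Mlxip was thus above Mlxipl in every sample. Txnip, a glucose-responsive gene that Mondo proteins control, was at 118 to 138 FPKM, then 184 to 201, then 329 to 333 (log2 1.47 ± 0.06 over the whole process, adjusted p = 2.5e-12, edgeR). Gpd1, which makes the glycerol phosphate backbone of triglycerides, went from 0.68, 0.70 and 0.62 FPKM to 299, 355 and 346 at day 4 and 615, 637 and 611 at day 8.

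AMPK phosphorylates and restrains both acetyl-CoA carboxylases. Of 11 genes of its subunits and upstream kinases, none was called early, and Prkaa2 was called higher late and over the whole process, at 0.16 to 0.21 FPKM on day 4 and 0.39 to 0.43 on day 8 (late log2 1.19 ± 0.20, adjusted p = 0.00017, edgeR). Over the whole process Prkaa2, a catalytic subunit, was at 1.03 log2 and was not called without day 0 replicate 2 (0.88), day 0 replicate 3 (1.00) or day 8 replicate 2 (0.99). With no fold limit 5 were higher and 1 lower early, 1 and 1 late, and 5 and 1 over the whole process. The medians of this list were 0.16, 0.00045 and 0.15.

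**Figure D4:**
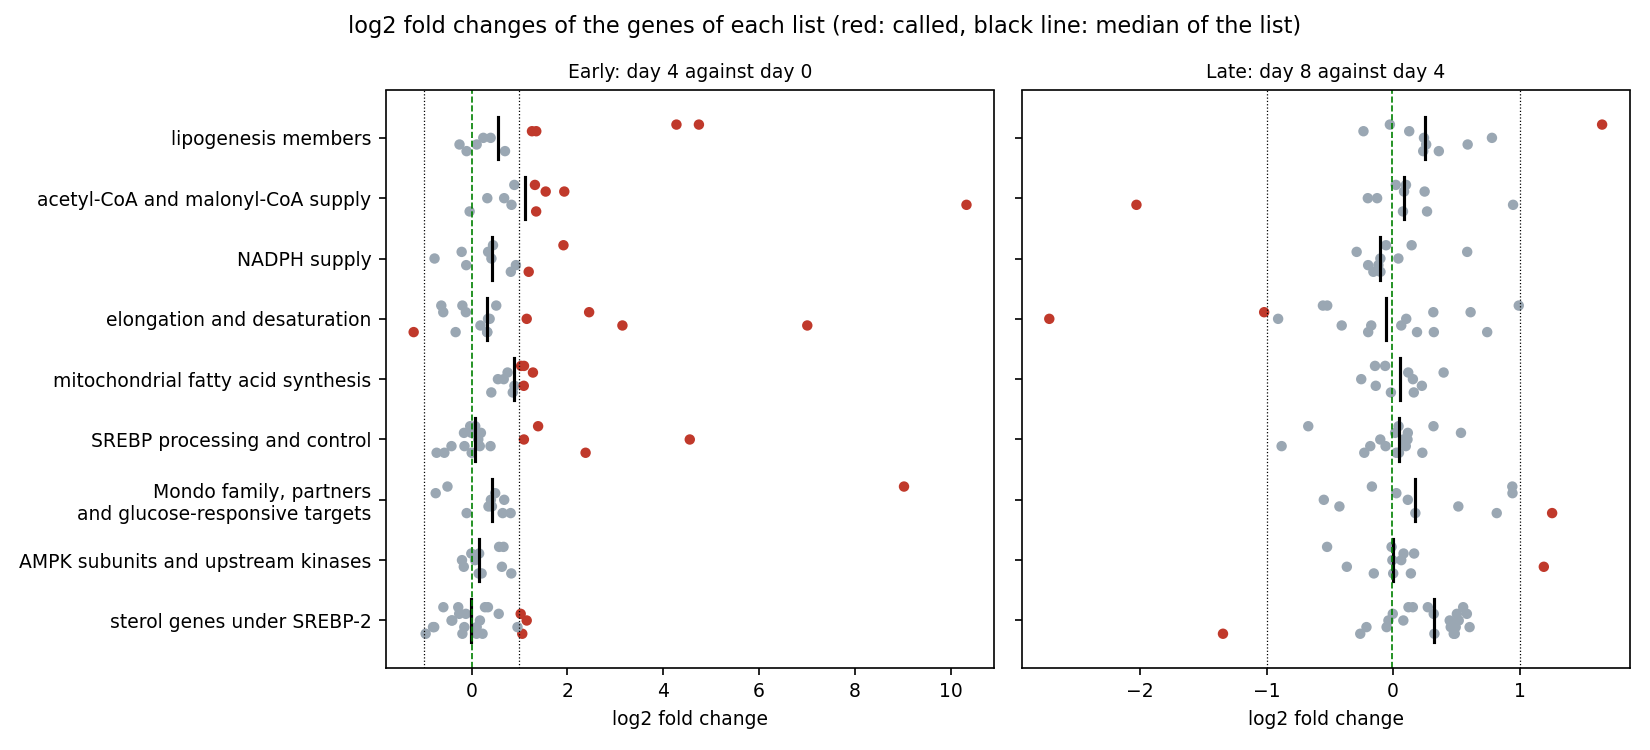
log2 fold change (x axis) of each tested gene of the 10-gene set and of the 8 pathway lists (rows) in the early phase (left) and the late phase (right). Red points were called and grey ones were not, the black line is the median of a list, dotted lines mark 2-fold and the green dashed line is the median of all tested genes. The early medians of the supply list (1.11) and of the mitochondrial list (0.88) lie farthest right, and Thrsp, at 10.33 early and -2.03 late, is the outermost point of its row in both panels.

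The genes whose log2 CPM ran most alike over the 9 samples were sought among 11466 other genes (11467 for Mlxipl). For Fasn they were Adrm1 and Acads (Pearson r 0.998 each), for Scd1 Olfm2, Sema3g and Gstz1 (0.999 each), for Srebf1 Syn2, Echdc3 and Lrpap1 (0.999, 0.999 and 0.998), for Acaca Gm2a, Casp6 and Nfrkb (0.986, 0.985 and 0.983), and for Mlxipl Gfm1, Pank2 and Egfr (0.991, 0.990 and 0.990). The 9 points fall into 3 days and share libraries, so r describes the order of the days more than the samples within them. A like shape did not mean a like size: Syn2 changed by 7.11 log2 early and -1.15 late, where Srebf1 changed by 1.35 and -0.23.

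Some values carry limits from the counting. Of the 50-base stretches, 30.4% for Acaca and 22.9% for Me1 also occur in transcripts of other genes, mostly Gm5182 and Gm7049, so these levels are less certain than those of Fasn, Acly and Acacb, which share none. The length that RSEM used differed between samples for 2 of the 10 genes, Acly (4416 to 4422 bases) and Srebf1 (4344 to 4347 bases), and was constant for the rest.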

How the data were processed

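RNA-seq of 9 samples (3 per day) was used. The authors filtered the reads, mapped them with HISAT and Bowtie2 and quantified genes with RSEM. The genome build is not given in the sources used here, and the sequencing platform is stated differently by the labels and the study. The deposited expected counts are per gene and not normalized, and 29.8% were not whole. In the deposited FPKM values the authors had divided by gene length and depth. The deposited RSEM length per gene was used for description. Expected counts were rounded and fitted in R 4.3.3 with edgeR 4.0.16 (filterByExpr, TMM factors of 0.954 to 1.05, glmQLFit and glmQLFTest with day as the only factor), leaving 13154 genes. Standard errors are the absolute log2 fold change over the square root of F. Alternatives were DESeq2 1.42.0, limma 3.58.1 on log2(FPKM + 1) and log2(FPKM + 0.1), edgeR's exact test, other scalings, no filter, separate fits, a block and leaving out each sample. On data simulated from these samples with known changes, the scripts were checked before use. Gene symbols are those of the files, and 26 symbols turned to dates were restored from their IDs. Members and lists were chosen with earlier results of these data known. Named genes were all 10 members, up to 4 called genes per list and comparison with the greatest change, 8 regulators fixed by name, and the 3 genes most alike for 5 members, among genes of average log2 CPM of at least 1. Mlycd, Mid1ip1, Fn1, Ly6a, Pdgfra, Thy1, Dlk1, Cd68 and Lyz2 lie outside this rule and were chosen after their values were seen. A gene that the rule names for Fasn is not reported here.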

Additional observations from a re-analysis of the deposited data

How the results depend on the processing

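Of 540 fold changes (10 genes, 3 comparisons, 18 alternatives), 532 kept their direction and side of the threshold. The late Mlxipl change, which was not called, turned from -0.03 to 0.17 without day 4 replicate 1, to 0.15 without day 8 replicate 1 and to 0.01 without day 8 replicate 3, and ran from -0.23 to 0.17 over all samples left out. Scd2 passed the limit over the whole process at 1.01 without day 8 replicate 1. On log2(FPKM + 1) in limma, 3 of the 10 genes were called higher over the whole process in place of 5, Mlxipl falling to 0.33 (0.35 early) and Srebf1 to 0.95. With a pseudocount of 0.1, Srebf1 was at 1.00 and was not called. A pseudocount compresses low values such as those of Mlxipl by construction, and the cause for Srebf1 was not tested. Leaving out each sample in turn, 4 genes were called higher early and 1 late each time, 5 to 6 over the whole process, and 0 lower in any comparison.

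Of the 107 tested genes of the 8 pathway lists, 23 were called higher early, 2 late and 23 over the whole process, and 1, 4 and 1 lower (over all tested genes 9.77%, 4.24% and 10.3% were higher, and 7.98%, 2.81% and 7.7% lower). The higher calls against day 0 include Thrsp, Elovl3 and Scd3, which passed the filter on low counts through their later samples. Leaving out each sample gave 20 to 24, 2 to 5 and 22 to 26 higher, and 1 to 2, 3 to 5 and 1 to 3 lower. The late count was 5 without day 4 replicate 2 and 4 without day 8 replicate 1. The early lower count was 2 without day 0 replicate 1, day 4 replicate 1 or day 4 replicate 2, and the lower count of the whole process was 2 without day 0 replicate 2 and 3 without day 8 replicate 1. With library size alone, and with limma on log2(FPKM + 0.1), 2 were called lower early and 2 over the whole process. Limma with either pseudocount called 1 higher late. Library size alone moved the median of all genes to -0.13 over the whole process, from -0.02. The cause of these differences was not tested.

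By expected counts the Scd1 share was 10.5%, 58.2% and 78.8% at day 0, 4 and 8, and the Acacb share at day 8 was 12%, since counts are not divided by length. Leaving out each sample gave Scd1 shares of 11.4% to 11.9%, 60.6% to 62.0% and 80.5% to 81.1%, and Acacb shares of 11.1% to 12.6%, 12.5% to 13.3% and 12.3% to 12.9%.

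The replicate numbers are shared by the days. Samples with equal numbers were only weakly correlated (mean 0.031, from -0.035 to 0.075 over 9 pairs), and those with unequal numbers averaged -0.015. Yet 6 of 9 samples were closest to their own number. Whether this is more than unlinked samples would give was not tested. With a replicate block, 4, 1 and 5 of the 10 genes were called higher, and 2340, 923 and 2370 of all genes against 2335, 928 and 2369 without it. Mlxipl at day 0 is limited by depth, with 2 counts in 3 samples.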
